A study of Homo sapiens with 10 samples.

Results

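The genes described here are the protein-coding genes whose symbol begins with KCN, the stem given to potassium channel subunits, in RNA-seq counts of 2 human endothelial cell lines. They were chosen by symbol alone, and the count table held 96 of them among 60448 genes. By symbol they fell into 40 voltage-gated subunits, 13 auxiliary subunits of voltage-gated channels, 16 inward rectifiers, 15 two-pore channels and 12 subunits of calcium-activated channels, a class that here includes the sodium-activated KCNT and the sperm channel KCNU1. The gene annotation used, GENCODE 44, holds a further 27 KCN symbols that are not protein-coding, and these were left out.

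Potassium channels let K+ leave or enter the cell along its gradient and so set the membrane potential. Voltage-gated channels open on depolarization, inward rectifiers and two-pore channels carry current near the resting potential, and calcium-activated channels open when intracellular Ca2+ rises. In endothelium, the resulting hyperpolarization is known to increase the driving force for Ca2+ entry and to relax the underlying smooth muscle, with KCNN3, KCNN4, KCNJ2 and, in some vessels, KCNMA1 and the ATP-sensitive KCNJ8 as the channels usually named. Many family members are best known from neurons, heart or muscle.

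Untreated cells of both lines were compared, with 5 biological replicates each, and the labels give both the genotype WT. EA.hy926 is a hybrid of umbilical vein endothelial cells with the lung carcinoma line A549, so its transcripts come from a fused endothelial and epithelial genome. HMEC-1 cells are endothelial cells of skin microvessels that were immortalized with the SV40 large T antigen. Each is a single line, so a difference between them is one between these lines and not between vessel types. EA.hy926 grew in Advanced DMEM with 5% serum. The medium of HMEC-1 was another one, with 10% serum, hydrocortisone at 1 μg/mL and EGF at 10 ng/mL, so line and medium cannot be told apart.

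Libraries of EA.hy926 held 34846046 to 39899324 counts and those of HMEC-1 33391640 to 43877224. Expression is given as counts, or as CPM (counts scaled to the TMM-adjusted library size), mean ± SD over 5 libraries, and a positive log2 fold change (log2FC) means higher in EA.hy926. A gene was called different when its adjusted p from edgeR was under 0.05 and its absolute log2FC over 1, the thresholds used in the study. All 10 endothelial markers examined were detected in both lines, summing to 5578 to 6249 CPM in libraries of EA.hy926 and 1951 to 2012 CPM in those of HMEC-1, although CLDN5 had 0 to 5 counts per EA.hy926 library. The 10 epithelial markers summed to 1350 to 1459 CPM and 449 to 509 CPM, mostly from KRT7, KRT8 and KRT18, while CDH1, ESRP1 and GRHL2 had 0 to 2 counts in every library. The 6 smooth muscle markers summed to 8.29 to 9.96 CPM and 42.8 to 49.7 CPM, with DES at 2 to 6 counts in every library. The members opposed each other, since the HMEC-1 sum was mostly TAGLN (log2FC = -4.47), while ACTA2 was higher in EA.hy926 (log2FC = 2.68). These marker lists move with the line, and their part in the channel differences was not tested.

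Most potassium channel genes were silent or nearly so in both lines. No read was counted for 9 of the 96 in any library, and 34 had at most 3 counts in every library. The filter on low counts kept 33 genes, and the highest count among the 63 left out was 18. Of the 33 tested, 23 were called different by edgeR, 14 higher and 9 lower in EA.hy926, where 35.5% of all 16310 genes tested were called (19.1% higher, 16.4% lower). With library totals in place of the TMM factors 24 were called, against 36.1%. The balance of directions depended on the filter, with 4 higher and 6 lower when at least 10 counts in every library were required, and 20 higher and 19 lower without a filter. An adjusted p under 0.05 was found for 30 of the 33, against 85.8% of all genes tested, and CPM did not overlap between the lines for 29 of the 33, against 77.4%. A gene that is nearly absent from one line passes the filter only through the other, so these shares are counts of what was tested, not of the whole family. The median log2FC of the 33 was 0.60 and that of all genes tested -0.01, and the median absolute log2FC was 2.33 and 0.65. In bulk RNA, fewer cells expressing a gene and less RNA of it per cell cannot be told apart.

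**Figure D1:**
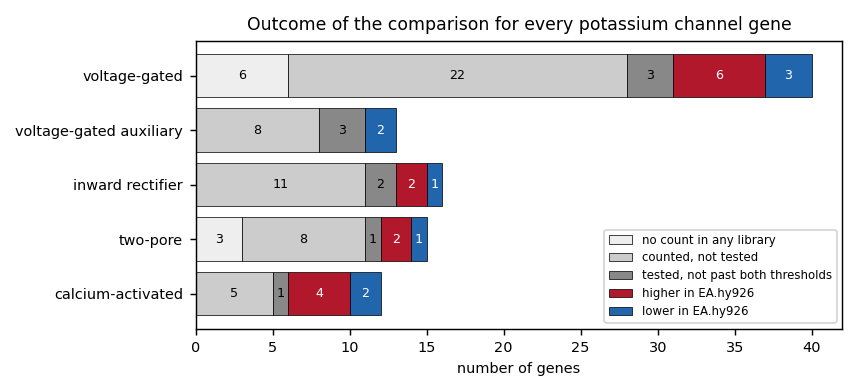
Number of potassium channel genes in each class (rows) by outcome: no count in any library, counted but not tested, tested without passing both thresholds, and higher or lower in EA.hy926. The 40 voltage-gated genes include 28 that were not tested. Of the 12 calcium-activated genes 7 were tested, and 6 of these 7 passed both thresholds. Of all genes tested, 35.5% passed both.

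**Figure D2:**
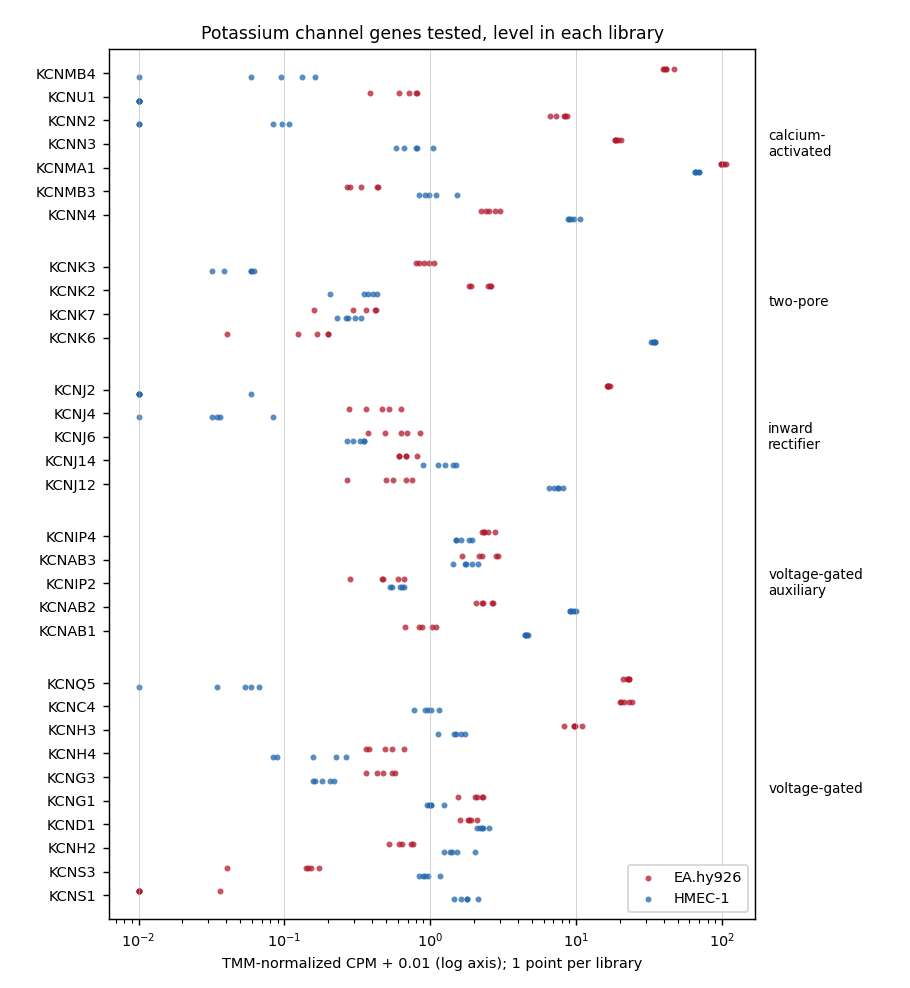
TMM-normalized CPM of 31 of the 33 tested genes in each of the 10 libraries on a log axis, with 0.01 added so that libraries at 0 can be drawn, red for EA.hy926 and blue for HMEC-1. KCNJ2, KCNQ5, KCNMB4 and KCNN2 lay far to the right in EA.hy926 and KCNK6 and KCNS1 in HMEC-1, and every library of KCNMA1 was higher in EA.hy926. The scale is not corrected for gene length, so it compares lines and not genes.

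Of the 7 calcium-activated genes tested, 6 were called (85.7%), 4 higher and 2 lower in EA.hy926, against 35.5% of all genes tested. Genes such as KCNU1, with no count in HMEC-1, passed the filter only through 1 line. Together the 12 genes of this class came to 170 to 185 CPM per library in EA.hy926, against 77.6 to 82.3 CPM in HMEC-1. KCNMA1 (ENSG00000156113, chromosome 10, 76869601 to 77638369), the pore-forming subunit of the large-conductance BK channel, had 3946, 3458, 3508, 3812 and 3691 counts in EA.hy926 and 2445, 2724, 3026, 2689 and 2648 in HMEC-1. Every EA.hy926 library was above every HMEC-1 library in CPM (102 ± 3.42 and 67.5 ± 1.91, SD, n = 5), but the difference was modest. The log2FC was 0.60, with a standard error of 0.030 and an adjusted p of 4.3e-14 from edgeR, which is under the fold threshold, and 0.46 when libraries were scaled by their totals.

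The partners of the BK channel differed far more than its pore. KCNMB4 (ENSG00000135643, chromosome 12, 70366290 to 70434292), the β4 subunit best known from brain, had 1725, 1337, 1446, 1600 and 1477 counts in the EA.hy926 libraries. In HMEC-1 it had 3, 5, 7, 2 and 0. The lines were separated by a wide gap, at 41.9 ± 2.77 CPM and 0.0818 ± 0.0599 CPM (log2FC = 8.90, standard error 0.14, edgeR adjusted p = 4.1e-23). The β3 subunit KCNMB3 went the other way, at 10 to 15 counts in EA.hy926 against 34 to 53 (log2FC = -1.63, standard error 0.23, edgeR adjusted p = 1.3e-06). Exons of other genes, mainly PIK3CA, cover 47.6% of its exonic bases, and these counts may hold reads of PIK3CA. KCNMB1, the β1 subunit of smooth muscle, was not seen in EA.hy926 and had 3 to 9 counts in HMEC-1, at least 7.5-fold higher there against a floor of 3 counts over the line, and was not tested. KCNMB2 had at most 2 counts in any library.

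LRRC38 (ENSG00000162494, chromosome 1, 13474973 to 13514003) is a γ subunit of BK channels outside the KCN symbols and was found on the HMEC-1 side. It had 85, 104, 134, 106 and 84 counts in HMEC-1 and 0, 0, 1, 0 and 0 in EA.hy926, a ratio of 461 with a 95% counting interval of 82.5 to 18264. Its fitted log2FC was -8.17, and -9.61 without EA.hy926 replicate 3, which held the 1 read of that line. The other γ subunits examined, LRRC26, LRRC52 and LRRC55, had 0 to 2 counts in every library. BK pore transcripts were thus accompanied by KCNMB4 transcripts in EA.hy926. Per kb of merged exon, KCNMB4 stood there at 8.62 CPM per kb and KCNMA1 at 2.58. Per kb of the longest transcript they stood at 8.89 and 8.44, with overlapping libraries. In HMEC-1, LRRC38 stood at 2.54 CPM, which is 1.17 CPM per kb of merged exon or of the longest transcript. KCNMA1 stood there at 1.71 per kb of merged exon and 5.59 per kb of the longest transcript. LRRC38 was thus lower than the pore in HMEC-1, by an amount that depends on the length used. KCNMB3 (34 to 53 counts) and KCNMB1 (3 to 9 counts) were also on the HMEC-1 side.

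The small- and intermediate-conductance channels of the KCNN family, which bind calmodulin and open with Ca2+, were divided between the lines. KCNN3 (ENSG00000143603, chromosome 1, 154697455 to 154870281), the SK3 channel, had 751, 624, 647, 713 and 717 counts in EA.hy926 and 28, 42, 30, 32 and 22 in HMEC-1. No HMEC-1 library came near the EA.hy926 range, and the means were 19.1 ± 0.776 and 0.768 ± 0.173 CPM (log2FC = 4.63, standard error 0.093, edgeR adjusted p = 4.5e-21). KCNN2, the SK2 channel (ENSG00000080709, chromosome 5, 114055926 to 114496500), had 270, 275, 303, 323 and 247 counts in EA.hy926 against 0, 3, 4, 4 and 0 (log2FC = 7.08, standard error 0.23, edgeR adjusted p = 2.6e-17). KCNN4, the intermediate-conductance channel (ENSG00000104783, chromosome 19, 43766533 to 43780976), was the member of the family that was lower in EA.hy926, with 93, 92, 84, 86 and 112 counts against 338, 363, 427, 431 and 335. Its means were 2.59 ± 0.310 and 9.43 ± 0.726 CPM (log2FC = -1.87, standard error 0.089, edgeR adjusted p = 1.9e-14), a 3.64-fold difference with no overlap of libraries. KCNN1 (SK1) had 7 to 14 and 3 to 12 counts and was not tested.

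Per kilobase of merged exon, the 4 KCNN genes summed to 3.59 ± 0.0745 CPM per kb in EA.hy926 and 3.12 ± 0.228 in HMEC-1, so their totals were closer than their make-up. KCNN4 made up 23.1 ± 2.75% of this sum in EA.hy926 and 96.7 ± 0.775% in HMEC-1. KCNN3 and KCNN2 made up 39.1 ± 1.82% and 35.8 ± 3.68% in EA.hy926. Which of these came first depended on the length used, since per kilobase of the longest transcript KCNN2 stood at 2.06 and KCNN3 at 1.46 CPM per kb.

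**Figure D3:**
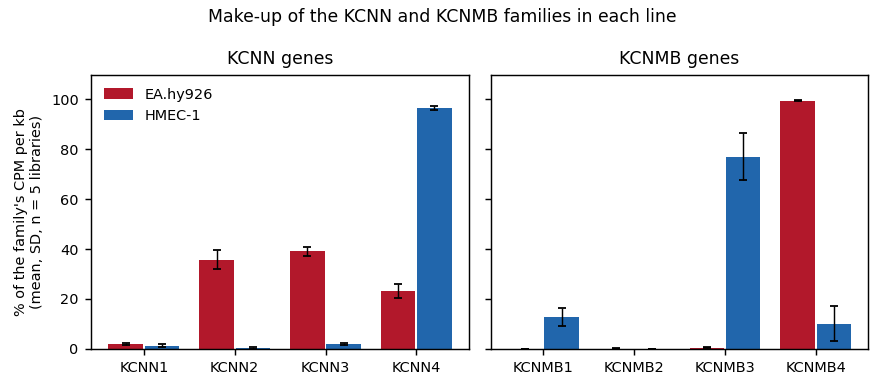
Share of each gene in the summed CPM per kilobase of merged exon of its family (y axis, %, mean with SD over 5 libraries), red for EA.hy926 and blue for HMEC-1, with the KCNN genes on the left and the KCNMB genes on the right. KCNN4 made up 96.7% of the KCNN sum in HMEC-1 and 23.1% in EA.hy926, and KCNMB4 99.5% of the KCNMB sum in EA.hy926 and 10.1% in HMEC-1, where that sum was only 0.156 CPM per kb.

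KCNU1 (Slo3, a channel known from sperm) had 14, 26, 21, 27 and 30 counts and none in HMEC-1. This is at least 43.7-fold more, against a floor of 3 counts over the line (edgeR adjusted p = 7.2e-09), at a level of 0.654 ± 0.174 CPM. The sodium-activated genes were too low to be tested. KCNT2 had none in EA.hy926 against 5 to 18, at least 15.3-fold higher in HMEC-1, and KCNT1 had 6 to 13 and 3 to 6.

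Inward rectifiers included KCNJ2, which was nearly confined to EA.hy926. KCNJ2 (ENSG00000123700, chromosome 17, 70168673 to 70180044), which encodes Kir2.1, the channel usually credited with the resting potential of endothelial cells, had 617, 545, 599, 633 and 615 counts in EA.hy926. HMEC-1 had 0, 2, 0, 0 and 0. The pooled ratio was 1672 with a 95% counting interval of 463 to 13816, and the edgeR adjusted p was 8.2e-22. The HMEC-1 value rests on 2 reads in replicate 2. Without that library the fitted log2FC went from 10.30 to 12.29, and as no count then remains in HMEC-1 the latter is not a bound. In EA.hy926 its spread between libraries was the smallest of the 16 potassium channel genes with at least 1 CPM, a coefficient of variation of 1.53%. The neighbouring inward rectifier KCNJ16, 33065 bases away on chromosome 17, had at most 1 count in any library.

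Other members of the Kir2 group were distributed differently. KCNJ12 (Kir2.2, ENSG00000184185, chromosome 17, 21376357 to 21419870) had 25, 18, 26, 10 and 18 counts in EA.hy926 and 287, 306, 347, 289 and 250 in HMEC-1. Every HMEC-1 library was above every EA.hy926 library, at 7.37 ± 0.606 CPM against 0.541 ± 0.187 (log2FC = -3.77, standard error 0.15, edgeR adjusted p = 7.4e-16). KCNJ18 is a near-identical copy, listed at 0 to 1 counts, so reads of the pair cannot be separated with certainty. KCNJ4 (Kir2.3) was low in EA.hy926, with 10 to 24 counts against 0 to 3 (log2FC = 3.75, standard error 0.46, edgeR adjusted p = 1.8e-07). KCNJ14 (Kir2.4) had 20 to 31 and 31 to 66 counts (log2FC = -0.88, standard error 0.18, edgeR adjusted p = 1.5e-04), short of the fold threshold, and past it at -1.02 with library totals. Exons of other genes cover 30.6% of its exonic bases.

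Of the remaining inward rectifiers, the G protein-gated KCNJ6 had 14 to 31 counts in EA.hy926 against 11 to 14. The log2FC was 0.94, with a standard error of 0.26 and an edgeR adjusted p of 0.00185, and passed the fold threshold when EA.hy926 replicate 2 or replicate 4 was left out, at 1.01 and 1.09. The pores and receptors of the ATP-sensitive channel were close to absent. KCNJ8 (Kir6.1) had 0, 2, 0, 0 and 0 counts in EA.hy926 and 0 in every HMEC-1 library, KCNJ11 (Kir6.2) had 1 to 9 in all libraries, and the sulfonylurea receptor genes ABCC8 and ABCC9 had 0 to 1. In all, 5 of 16 inward rectifiers were tested, with 2 called higher and 1 called lower in EA.hy926. This is 60% of those tested, against 35.5% of all genes tested.

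Two-pore channels were represented in HMEC-1 by KCNK6 (ENSG00000099337, chromosome 19, 38319845 to 38332076), which encodes TWIK-2, a background channel described in vascular tissue and in endolysosomes. HMEC-1 libraries had 1195, 1371, 1506, 1422 and 1337 counts, and EA.hy926 libraries 7, 1, 4, 6 and 7. The gap was of the order seen for KCNMB4, in the opposite direction, with 34.0 ± 0.964 CPM against 0.136 ± 0.0666 (log2FC = -7.91, standard error 0.11, edgeR adjusted p = 7.7e-24). Among the 15 two-pore genes, no other reached a mean of 1 CPM in HMEC-1.

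In EA.hy926, the two-pore genes called higher were KCNK2 and KCNK3. KCNK2 (TREK-1, ENSG00000082482, chromosome 1, 215005775 to 215237090), which is activated by membrane stretch and lipids, had 68, 63, 87, 98 and 96 counts in EA.hy926 and 12, 15, 9, 16 and 16 in HMEC-1. Its means were 2.27 ± 0.369 and 0.343 ± 0.0875 CPM (log2FC = 2.73, standard error 0.20, edgeR adjusted p = 2.8e-11). KCNK3, the acid-sensitive TASK-1, had 29 to 39 counts against 1 to 2 (log2FC = 4.40, standard error 0.31, edgeR adjusted p = 1.8e-11). KCNK7, a member for which no current is known when expressed alone, had 5 to 16 and 9 to 15 counts with overlapping libraries (log2FC = 0.25, standard error 0.29, edgeR adjusted p = 0.423). The other 11 two-pore genes were not tested, and of these KCNK9 (TASK-3) had 8 to 13 counts in EA.hy926 against 0 to 2.

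The voltage-gated class was large and mostly silent, with 12 of 40 genes tested. Of these, 9 were called (75%), 6 higher and 3 lower in EA.hy926, against 35.5% of all genes tested. Libraries of EA.hy926 summed to 60.8 to 67.1 CPM over the class, those of HMEC-1 to 11.8 to 13.1 CPM. KCNQ5 (ENSG00000185760, chromosome 6, 72621792 to 73198853), which encodes Kv7.5, a subunit of slow subthreshold currents in neurons and vascular muscle, had 850, 741, 803, 813 and 854 counts in EA.hy926 and 2, 1, 2, 2 and 0 in HMEC-1. The mean in EA.hy926 was 22.5 ± 0.788 CPM and the log2FC 9.20 (standard error 0.14, edgeR adjusted p = 3.1e-23), with a pooled ratio of 645 and a 95% counting interval of 313 to 1605. The related KCNQ1 and KCNQ3 had at most 6 counts in any library.

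KCNC4 (Kv3.4, ENSG00000116396, chromosome 1, 110210314 to 110283100), a fast inactivating channel, had 858, 661, 854, 780 and 787 counts in EA.hy926 and 40, 39, 46, 31 and 35 in HMEC-1. This is 21.8 ± 1.91 against 0.954 ± 0.138 CPM (log2FC = 4.51, standard error 0.0925, edgeR adjusted p = 6.6e-21). KCNH3 (Kv12.2, ENSG00000135519, chromosome 12, 49539030 to 49558337), best known from forebrain neurons, had 364, 274, 339, 422 and 361 counts against 51, 46, 75, 70 and 57. Its log2FC was 2.70 (standard error 0.11, edgeR adjusted p = 5.3e-16). The related KCNH4 (Kv12.3) was higher as well at low counts, 13 to 25 against 3 to 10 (log2FC = 1.62, standard error 0.33, edgeR adjusted p = 1.3e-04). KCNH2, the hERG channel of cardiac repolarization, was lower in EA.hy926, with 19 to 27 counts against 47 to 83 (log2FC = -1.23, standard error 0.18, edgeR adjusted p = 2.6e-06).

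KCNG and KCNS genes encode electrically silent subunits, which conduct only when joined with the pores of other voltage-gated genes, and the called KCNG gene was higher and both called KCNS genes lower in EA.hy926. KCNG3 was higher in EA.hy926, with 13 to 21 counts against 6 to 8 (log2FC = 1.41, standard error 0.27, edgeR adjusted p = 5.4e-05). KCNG1 had 59 to 80 against 33 to 50, and its log2FC of 0.98 (standard error 0.15, edgeR adjusted p = 3.7e-06) crossed the fold threshold when replicate 4 of EA.hy926 (1.07) or of HMEC-1 (1.04) was left out.

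KCNS1 (Kv9.1, ENSG00000124134, chromosome 20, 45091214 to 45101127) had 62, 66, 67, 86 and 68 counts in HMEC-1 and 0, 0, 0, 1 and 0 in EA.hy926. The pooled ratio was 314 in favour of HMEC-1 with a 95% counting interval of 56.0 to 12436 (edgeR adjusted p = 1.3e-13). The fitted log2FC was -7.63, and -9.05 without EA.hy926 replicate 4, which held the 1 read of that line. KCNS3 (Kv9.3) was also higher in HMEC-1, with 29 to 47 counts against 1 to 6 (log2FC = -2.93, standard error 0.28, edgeR adjusted p = 2.4e-09). AMIGO1, an adhesion protein that associates with voltage-gated potassium channels and lies outside the KCN symbols (ENSG00000181754, chromosome 1, 109504178 to 109509738), had 309, 335, 425, 376 and 337 counts in HMEC-1 and 5, 1, 9, 2 and 2 in EA.hy926 (log2FC = -6.35, standard error 0.19, edgeR adjusted p = 4.8e-18), and the log2FC was -6.94 without EA.hy926 replicate 3. KCNS1, KCNS3 and AMIGO1 were thus all on the HMEC-1 side.

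No KCNA gene was tested in either line. The 8 genes of this stem, which encode the Kv1 pores, had at most 1 count in any EA.hy926 library and at most 5 in any HMEC-1 library, and 4 of them had none at all. The KCNAB genes, whose products are known as cytoplasmic β subunits of Kv1 channels and resemble aldo-keto reductases, were nevertheless all counted. KCNAB1 (ENSG00000169282, chromosome 3, 156037701 to 156539138) had 32, 22, 29, 42 and 38 counts in EA.hy926 against 157, 189, 205, 192 and 172 (log2FC = -2.33, standard error 0.12, edgeR adjusted p = 1.1e-13). KCNAB2 (ENSG00000069424, chromosome 1, 5990927 to 6101193) had 83, 68, 95, 101 and 85 against 318, 373, 446, 382 and 381 (log2FC = -1.98, standard error 0.083, edgeR adjusted p = 1.8e-15). Both were lower in EA.hy926 without overlap, whereas KCNAB3 overlapped between the lines, at 61 to 111 and 66 to 86 counts (log2FC = 0.41, standard error 0.15, edgeR adjusted p = 0.0184).

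Among the other auxiliary subunits, KCNIP4, a Ca2+-binding partner of Kv4 channels, had 75 to 97 and 57 to 85 counts (log2FC = 0.53, standard error 0.12, edgeR adjusted p = 4.5e-04), and exons of other genes, mainly PACRGL, cover 46.3% of its exonic bases. KCNIP2 had 9 to 23 and 20 to 29 counts (log2FC = -0.27, standard error 0.23, edgeR adjusted p = 0.279). Of the Kv4 pores themselves, KCND1 had 59 to 80 and 80 to 104 counts (log2FC = -0.29, standard error 0.12, edgeR adjusted p = 0.0257). KCND2 had 2 to 15 counts in EA.hy926 and none in HMEC-1, at least 13.7-fold more against the floor, and KCND3 had at most 9 counts in any library. The 5 KCNE genes, single-pass partners of several voltage-gated pores, had at most 14 counts in any library and were not tested. In the auxiliary class as a whole, 2 of 5 tested genes were called, both lower in EA.hy926. This share, 40%, was near the 35.5% of all genes tested.

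**Figure D4:**
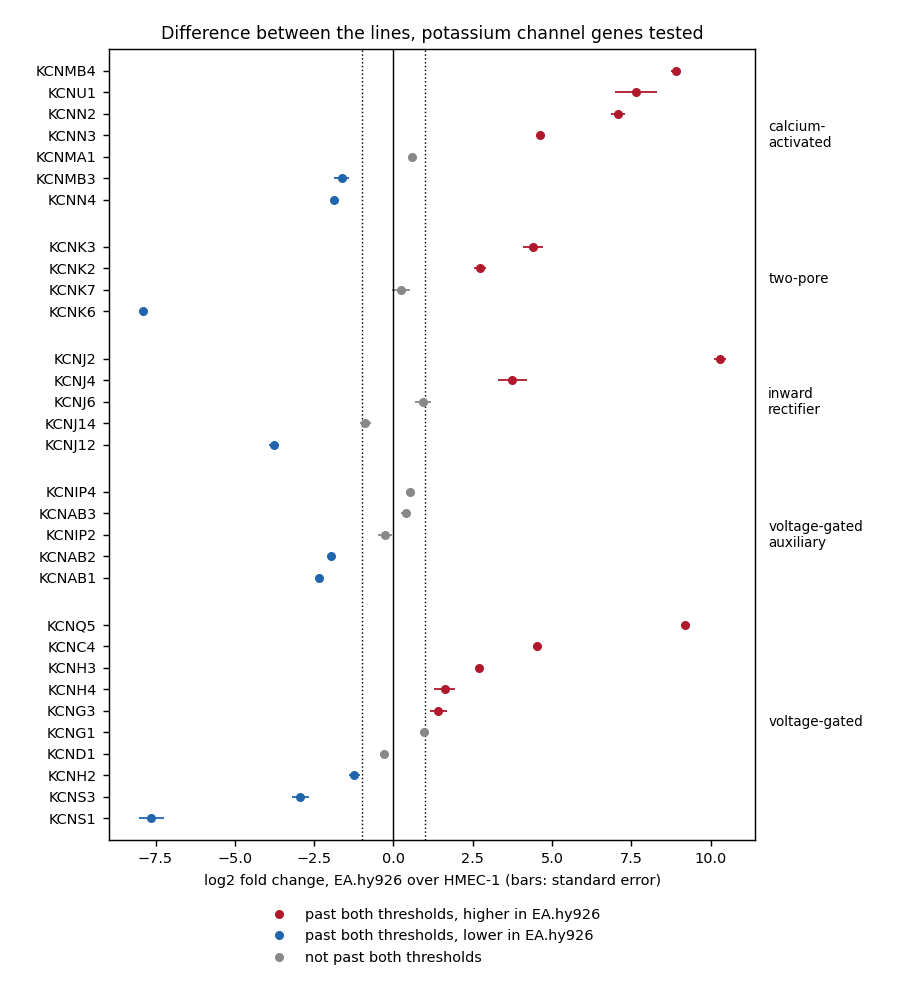
Log2FC of EA.hy926 over HMEC-1 for 31 of the 33 tested potassium channel genes by class, with the standard error as bars and dotted lines at the fold thresholds of -1 and 1. Each class has called genes on both sides except the auxiliary class, whose 2 called genes are lower in EA.hy926, and the value of KCNU1, which had no count in HMEC-1, depends on the fitting and is not a bound.

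The order of the genes within a line was taken per kilobase of merged exon. In EA.hy926 it was KCNMB4 (8.62 ± 0.570 CPM per kb), KCNJ2 (2.98 ± 0.0455), KCNMA1 (2.58 ± 0.0867), KCNH3 (2.16 ± 0.216) and KCNQ5 (1.98 ± 0.0696). Libraries of KCNH3 and KCNQ5 overlapped, so this pair has no order beyond its spread, and the other neighbours did not overlap. HMEC-1 began with KCNK6 (5.52 ± 0.156), KCNN4 (3.02 ± 0.232), KCNMA1 (1.71 ± 0.0484), KCNJ12 (1.35 ± 0.111) and KCNAB1 (0.667 ± 0.0166), with no overlap between neighbours. KCNMA1 is the only gene among the first 5 of both lines. Its position depends on the length, because its merged exons span 39437 bases and its longest transcript 12071. Per kilobase of the longest transcript, KCNMA1 stood at 8.44 ± 0.283 beside KCNMB4 at 8.89 ± 0.587 in EA.hy926. In HMEC-1 it stood at 5.59 ± 0.158 beside KCNK6 at 5.95 ± 0.168. Libraries of each pair overlapped, so on this length neither line has a first gene beyond the spread. Other positions moved as well. In EA.hy926, KCNQ5 (3.36) then came before KCNJ2 (3.09) with overlapping libraries. In HMEC-1, KCNAB2 (1.58) came before KCNJ12 (1.40), again with overlap, and KCNAB1 was no longer among the first 5.

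**Figure D5:**
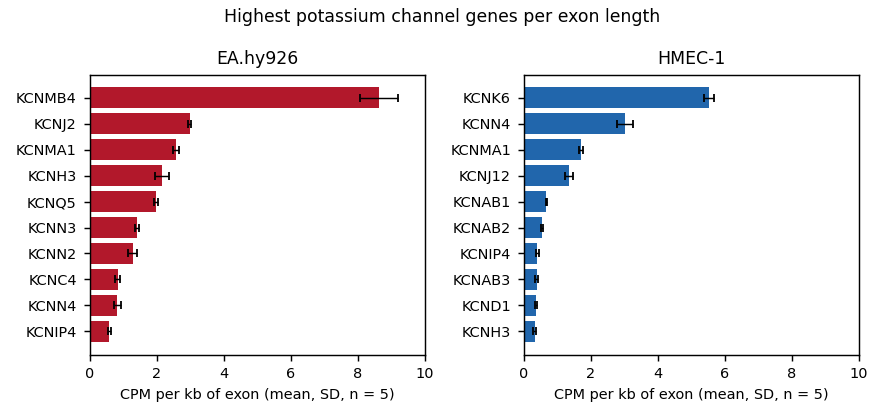
The 10 highest potassium channel genes of each line per kilobase of merged exon (x axis, CPM per kb, mean with SD over 5 libraries), EA.hy926 on the left in red and HMEC-1 on the right in blue. KCNMB4 led at 8.62 in EA.hy926 and KCNK6 at 5.52 in HMEC-1, and KCNMA1 was among the first 3 in both.

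A mean of at least 1 CPM was reached by 16 of the 96 genes in EA.hy926 and 15 in HMEC-1, with 8 in common. Of the 23 called genes, 6 reached 10 CPM in a line, namely KCNMB4, KCNQ5, KCNC4, KCNN3 and KCNJ2 in EA.hy926 and KCNK6 in HMEC-1. Differences in genes such as KCNG3, KCNH4, KCNJ4 and KCNU1 rest on under 1 CPM in either line, as was the case for 10 of the 33 tested. Among genes with at least 1 CPM, the coefficient of variation between libraries had a median of 9.17% in EA.hy926 and 11.1% in HMEC-1, and was highest for KCNAB3 (21.5%) and KCNMB3 (25%).

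Outside the KCN symbols, 17 further genes of potassium channel partners or of other potassium-permeable channels were examined. Of 8 tested, 3 were called, AMIGO1 and LRRC38 as described and HCN2, a hyperpolarization-activated pacemaker channel. This share, 37.5%, was near the 35.5% of all genes tested. HCN2 (ENSG00000099822, chromosome 19, 589881 to 617159) had 1221, 1062, 1143, 1135 and 1106 counts in EA.hy926 against 212, 208, 269, 228 and 209 (log2FC = 2.48, standard error 0.055, edgeR adjusted p = 2.7e-20). HCN3 did not separate the lines (log2FC = -0.02, standard error 0.098, edgeR adjusted p = 0.876), and HCN4 had no count. The intracellular channels differed by less than the fold threshold. TMEM175 of lysosomes (log2FC = 0.62, standard error 0.070, edgeR adjusted p = 4.8e-08) and CCDC51 of mitochondria (log2FC = 0.47, standard error 0.055, edgeR adjusted p = 7.2e-08) were above 0. TMEM38A and TMEM38B, trimeric cation channels of the endoplasmic reticulum, were at -0.55 (standard error 0.094, edgeR adjusted p = 1.6e-05) and -0.50 (standard error 0.041, edgeR adjusted p = 1.9e-10).

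The promoters of 6 members are shown as examples. KCNJ2, KCNQ5 and KCNN3 are from the EA.hy926 side, KCNK6 and KCNN4 from the HMEC-1 side, and KCNMA1 was expressed by both lines. These are not the 6 largest differences, and no RefSeq promoter was found for KCNMB4. Each sequence is the 250 bases before the RefSeq transcription start (GRCh38.p14), 5′ to 3′ on the gene's strand. For KCNJ2, KCNMA1 and KCNQ5 that start lies 859, 561 and 272 bases from the GENCODE gene start, so their windows fall inside the gene span. Capitals mark matches, on either strand, to the GC box searched as GGGCGG, the motif CCAAT, the TATA box searched as TATAAA, the AP-1 site searched as TGANTCA and the ETS core searched as CGGAAG. The windows are chr17:70169282-70169531 (+) for KCNJ2, chr6:72621814-72622063 (+) for KCNQ5, chr1:154870282-154870531 (-) for KCNN3, chr10:77637809-77638058 (-) for KCNMA1, chr19:38319595-38319844 (+) for KCNK6 and chr19:43780974-43781223 (-) for KCNN4.
KCNJ2: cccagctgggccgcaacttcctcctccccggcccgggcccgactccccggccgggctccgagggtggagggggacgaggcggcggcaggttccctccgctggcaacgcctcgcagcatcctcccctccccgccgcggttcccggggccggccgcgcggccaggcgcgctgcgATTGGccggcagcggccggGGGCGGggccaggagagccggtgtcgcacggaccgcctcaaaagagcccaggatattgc
KCNQ5: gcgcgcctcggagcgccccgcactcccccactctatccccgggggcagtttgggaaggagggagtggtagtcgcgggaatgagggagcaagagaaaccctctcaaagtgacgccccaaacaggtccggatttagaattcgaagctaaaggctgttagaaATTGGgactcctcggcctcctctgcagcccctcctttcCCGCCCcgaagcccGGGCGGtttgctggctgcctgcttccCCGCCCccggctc
KCNN3: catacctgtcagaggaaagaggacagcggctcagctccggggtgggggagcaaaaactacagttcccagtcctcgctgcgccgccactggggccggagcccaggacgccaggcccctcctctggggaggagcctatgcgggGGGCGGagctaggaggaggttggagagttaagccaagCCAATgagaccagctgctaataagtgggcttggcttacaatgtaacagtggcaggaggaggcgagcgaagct
KCNMA1: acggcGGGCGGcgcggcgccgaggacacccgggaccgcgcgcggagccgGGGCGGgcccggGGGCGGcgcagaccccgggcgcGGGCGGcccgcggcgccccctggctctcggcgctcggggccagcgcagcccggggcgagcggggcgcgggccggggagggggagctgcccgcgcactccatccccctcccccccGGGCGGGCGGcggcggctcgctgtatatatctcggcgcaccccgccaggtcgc
KCNK6: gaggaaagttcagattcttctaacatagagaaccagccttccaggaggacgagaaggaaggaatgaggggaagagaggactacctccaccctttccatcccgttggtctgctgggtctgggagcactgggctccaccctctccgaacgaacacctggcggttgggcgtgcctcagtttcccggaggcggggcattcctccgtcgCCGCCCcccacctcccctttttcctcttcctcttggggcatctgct
KCNN4: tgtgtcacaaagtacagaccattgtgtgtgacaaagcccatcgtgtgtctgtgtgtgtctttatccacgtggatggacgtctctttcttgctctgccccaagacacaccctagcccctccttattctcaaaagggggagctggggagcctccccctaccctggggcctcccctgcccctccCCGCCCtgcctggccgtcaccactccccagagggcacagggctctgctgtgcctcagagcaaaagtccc

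None of the 6 windows holds a match to the TATA box, AP-1 site or ETS core, and each holds at least 1 GC box, from 1 in KCNJ2, KCNN3, KCNK6 and KCNN4 to 3 in KCNQ5 and 6, of which 2 overlap, in KCNMA1. A CCAAT box is present in KCNJ2, KCNQ5 and KCNN3 and not in KCNMA1, KCNK6 or KCNN4. The CpG ratio, the number of CG pairs over that expected from the C and G content, was 1.01 in KCNMA1, 0.851 in KCNJ2, 0.707 in KCNQ5, 0.498 in KCNK6, 0.474 in KCNN3 and 0.231 in KCNN4. A RefSeq promoter was found for 72 of the 96 genes. Their median CpG ratio was 0.560, against 0.556 over 27303 promoters of the table, and a GC box was present in 40 of them (55.6%), against 42.3% of all promoters. For the other motifs, all promoters held CCAAT in 33.0%, TATAAA in 11.1%, TGANTCA in 6.6% and CGGAAG in 16.8%, and the 72 held them in 30.6%, 8.33%, 5.56% and 11.1%. The CpG ratio was over 0.6 for 70.0% of the 10 genes with a promoter that were called higher in EA.hy926 and 28.6% of the 7 called lower, beside 44.4% of the 72 and 47.4% of all promoters. CCAAT was found in 40.0% of the higher and 57.1% of the lower genes. With so few genes these are descriptions, and a match is not a bound site.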

How the data were processed

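The RNA-seq data comprise 5 libraries per cell line, assigned by sample title and column name. The authors enriched mRNA with oligo(dT), synthesized cDNA without a stated strand mark, sequenced it on an Illumina instrument and aligned it to GRCh38 with HISAT2. Their methods name HTSeq for counting and the submitters' processing notes list featureCounts, and the annotation release and strand setting are not given in the sources used here. The values deposited are raw counts per Ensembl gene, without normalization. Without strand, reads of a gene and of an overlapping antisense gene cannot be told apart.

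Gene symbols, types, positions and lengths come from GENCODE 44, which matched 56434 of 60448 identifiers, and exon overlap with other genes was computed with bedtools 2.31.1. Low genes were removed by filterByExpr, set to a minimum count of 10 and total of 15, and TMM factors were applied. The lines were tested by the quasi-likelihood functions of edgeR 4.0.16 (glmQLFit, glmQLFTest; R 4.3.3), adjusting p over 16310 genes after Benjamini and Hochberg. Standard errors were derived from the log2FC and its F statistic. For a gene with no count in a line, the bound is the ratio against 3 counts summed over that line. For a gene with few counts, a ratio of the summed counts is given with an exact (Clopper-Pearson) 95% interval. Both cover counting error only, and 3 counts in a library are 0.0651 to 0.0904 CPM. Replicate pairs of a line differed by 3.11 to 7.80 times the sampling noise (chi-square per gene), so no library was a copy of another. DESeq2 1.42.0, limma-voom (limma 3.58.1), other filters and factors, a replicate block, glmTreat and each library left out were alternatives. The tests were tried on simulated counts. Tables were handled with pandas 2.3.3, numpy 2.4.6 and scipy 1.17.1 in Python 3.11.15, and figures were drawn with matplotlib 3.10.9.

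The members, the lists and the rule for naming genes were chosen with earlier results of these data known. Named were members past both thresholds, the 3 highest of each class per kilobase over both lines, KCNMA1, KCNN3, KCNN4, KCNJ2 and KCNJ8, and accessory genes past both thresholds. The other members and accessory genes given with values were named after their values were seen. Some genes counted here are not reported by name.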

Additional observations from a re-analysis of the deposited data

Results flagged for a closer look

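In 78 groups of 5 libraries, one for each named gene and line with a spread, 8 had a library whose gap to its nearest neighbour was over Dixon's 95% limit for the group's range, where chance flags about 1 in 20 groups. For 4 of them the gap is 1 or 2 reads beside libraries at 0, namely KCNJ2 in HMEC-1 replicate 2 (0.0490 CPM), KCNJ8 in EA.hy926 replicate 2 (0.0603 CPM), KCNS1 in EA.hy926 replicate 4 (0.0260 CPM) and LRRC38 in EA.hy926 replicate 3 (0.0285 CPM). KCNMB4 was high in EA.hy926 replicate 1, at 46.7 CPM against 39.8 to 41.6 in the other libraries. KCNS3 was low in EA.hy926 replicate 2, at 0.0301 CPM (1 count) against 0.130 to 0.162. KCNG1 was high in HMEC-1 replicate 4, at 1.23 CPM against 0.941 to 1.00. TMEM38A was low in EA.hy926 replicate 4, at 2.37 CPM against 2.59 to 2.68. Leaving out the library moved the log2FC of KCNJ2 to 12.29, of KCNS1 to -9.05 and of LRRC38 to -9.61. Without EA.hy926 replicate 1, KCNMB4 remained called, and its log2FC stayed between 8.59 and 9.26 with each of the 10 libraries left out.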

How the results depend on the processing

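The 23 called potassium channel genes were the same genes with DESeq2, limma-voom, RLE factors and the replicate block, and all 23 were among those called with library totals (24, with KCNJ14 in addition). Leaving out single libraries gave 23 to 25 calls, always including these 23. The filter moved the number. With at least 10 counts in every library, 17 members were tested and 10 called, where 24.8% of all genes so filtered were called. This filter leaves out every gene absent from 1 line. It also leaves out genes that are low but present, such as KCNK2 and KCNG3 with 9 to 16 and 6 to 8 counts in HMEC-1. Of the 10 called, 4 were higher and 6 lower in EA.hy926. They were 4 voltage-gated, 2 auxiliary, 1 inward rectifier, 0 two-pore and 3 calcium-activated genes. Of the accessory genes, 1 was called with this filter. Without a filter, 87 members were tested and 39 called (against 28.2% of all genes with a count), 20 higher and 19 lower in EA.hy926. These were 15 voltage-gated, 4 auxiliary, 6 inward rectifier, 5 two-pore and 9 calcium-activated genes. glmTreat, which tests for a log2FC beyond 1, left 21 and lost KCNG3 and KCNH2. The log2FC of HCN3, which was not called, ranged from -0.0879 to 0.0478 with single libraries left out and turned without EA.hy926 replicate 1 or 5 or HMEC-1 replicate 1 or 3. Library totals moved the log2FC of all genes by a median of -0.13. The highest mean per kb of merged exon was that of KCNMB4 in EA.hy926 and KCNK6 in HMEC-1. Per kb of the longest transcript both overlapped with KCNMA1, KCNK6 at 5.95 CPM per kb. The replicate numbers do not pair the samples. Correlations of deviations between libraries with the same number were -0.0228 to 0.0389, and with the replicate block 23 genes were called, 14 higher and 9 lower. Genes under about 1 CPM, with few counts, are limited by depth.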

Other observations

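Levels of some family members that are neighbours on a chromosome were compared. KCNC4 lies 234117 bases from KCNA10 and within 370460 bases of KCNA2 and KCNA3 on chromosome 1, and while KCNC4 had 661 to 858 counts per EA.hy926 library, these 3 genes had 0 to 1. KCNJ6 and KCNJ15, 34204 bases apart on chromosome 21, had 14 to 31 and 6 to 11 counts in EA.hy926 and 11 to 14 and 1 to 8 in HMEC-1. KCNMB1 lies within the span of KCNIP1 on chromosome 5, on the other strand. Neither was seen in EA.hy926, and in HMEC-1 KCNMB1 had 3 to 9 and KCNIP1 3 to 7 counts.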
